A study of Mus musculus with 2 samples.

Results

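The genes described here are the ligand Tgfb1, its cell-surface anchor Lrrc32, the receptors Tgfbr1 and Tgfbr2, the signal carriers Smad2, Smad3 and Smad4, the inhibitory Smad7 and the repressors Ski and Skil. They were chosen by name as parts of one pathway, and a probe counted as theirs where its RefSeq accession led to the gene's symbol. This gave 20 probes for 10 genes, out of 22911 genes with a named probe on the array. RNA came from regulatory T cells (Tregs) that had been sorted from mouse kidney on day 28 after induction of cGN, in which antibodies to the basement membrane of the glomerulus (anti-GBM antibodies) injure the kidney. The sort took cells with CD45, CD3e, CD4 and FoxP3-hCD2, a reporter that puts human CD2 on cells expressing Foxp3, and the labels state that disease severity varied with the antibody lot. One single-colour array was made for lot I and another for lot M, and both share the sort, the tissue, the day and cGN induction. Mouse strain, age, any pooling of mice and uninjured controls are not given in the sources used here.

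TGF-beta is secreted in a latent form, which Tregs hold on their surface through GARP, the product of Lrrc32, and which integrins release. The freed ligand joins a type II receptor (Tgfbr2) to a type I receptor (Tgfbr1), whose kinase phosphorylates SMAD2 and SMAD3, and these enter the nucleus with SMAD4. SMAD7 blocks the receptors, while SKI and SnoN (Skil) hold SMAD complexes inactive on DNA. In Tregs the pathway is known for its part in Foxp3 induction, in suppression and in residence in tissues, and in the kidney for its part in fibrosis.

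The sources disagree on which array belongs to which lot, so the arrays are called 1 and 2 after the number in their titles. The lot is a label of the sample, and both the scanner output and the deposited value table were linked to lots through it. The scanner output of the sample labelled lot I, array 1, had signals that matched the lot M column of the value table. The log2 of signal over table value had an SD of 0.000189 over 13919 probes against that column and of 0.156 against the lot I column. Array 2 matched the lot I column in the same way. Every difference is therefore written as array 2 minus array 1 in log2 units. By the scanner output a positive value means higher with lot M, and by the value table higher with lot I. With 1 array per lot there is no replicate check, no test and no p-value, and neither array can be left out. The error given with a difference is the scanner's own error for single spots, which holds no variation between mice or lots.

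Promoter sequences (RefSeq, GRCm38.p6) were used for 5 of the 10 genes. The 250 bases before the transcription start of the ligand gene and of both receptor genes are printed because these are the regulatory stretches from which the ligand and receptor transcripts start. Capitals mark GC boxes (GGGCGG) and the short SMAD motif CAGAC, each searched on both strands. The stretches lie at chr7:25686752-25687001 on the plus strand for Tgfb1, at chr4:47352972-47353221 on the plus strand for the first start of Tgfbr1 and at chr9:116175364-116175613 on the minus strand for Tgfbr2.
Tgfb1: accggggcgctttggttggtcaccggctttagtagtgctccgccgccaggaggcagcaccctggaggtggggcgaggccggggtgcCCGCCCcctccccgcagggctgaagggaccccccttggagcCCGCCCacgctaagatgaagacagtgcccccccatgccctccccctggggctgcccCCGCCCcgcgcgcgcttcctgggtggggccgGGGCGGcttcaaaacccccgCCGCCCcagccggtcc
Tgfbr1: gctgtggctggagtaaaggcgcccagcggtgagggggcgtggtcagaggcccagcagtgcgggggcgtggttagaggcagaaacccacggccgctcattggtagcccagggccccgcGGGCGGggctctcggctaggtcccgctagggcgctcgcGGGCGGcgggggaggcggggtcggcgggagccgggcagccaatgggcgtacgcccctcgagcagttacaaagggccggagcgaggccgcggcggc
Tgfbr2: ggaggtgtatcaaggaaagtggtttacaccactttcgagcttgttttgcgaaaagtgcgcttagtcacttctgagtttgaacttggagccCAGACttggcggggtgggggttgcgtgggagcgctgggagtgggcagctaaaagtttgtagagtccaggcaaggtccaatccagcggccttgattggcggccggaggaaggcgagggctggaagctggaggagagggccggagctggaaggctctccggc
The Tgfb1 stretch held 5 GC boxes and no CAGAC, the Tgfbr1 stretch 2 GC boxes and no CAGAC, and the Tgfbr2 stretch no GC box and 1 CAGAC, whose match begins 160 bases before the start. The promoter of Smad3 held 2 GC boxes and that of Ski 5, and neither held CAGAC. A second start of Tgfbr1, not printed, had no GC box and 1 CAGAC. Among 32851 promoters of the same length, 32.7% held a GC box and 42.2% held CAGAC. None of the 6 stretches of these 5 genes had the palindromic SMAD element GTCTAGAC, the AP-1 motif TGANTCA or a TATAAA box, which 0.167%, 6.75% and 12.4% of all promoters held. GC content was 75.2% for Tgfb1, 74.8% for Tgfbr1 and 58.4% for Tgfbr2, beside a median of 52.4%. These matches describe letters in the window only.

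Every gene of the set was measured in the RNA of the sorted cells. All 20 probes were well above background, a flag of the scanner software, on both arrays. A gene is called measured on an array where one of its probes carries that flag. Over all genes with a named probe, 60.0% had a probe that passed on both. Levels are given as log2 of the signal over the array's 75th percentile, so that 0 stands for that percentile. The dimmest probe of the set, 1 of the 4 for Smad4, stood 9.50 times above the detection floor on array 1 and 7.67 times on array 2. The floor is the lowest signal among probes well above background and lay at -4.62 (array 1) and -4.58 (array 2). Probes differ in how strongly they bind, so no gene's level is ranked against another's.

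**Figure D1:**
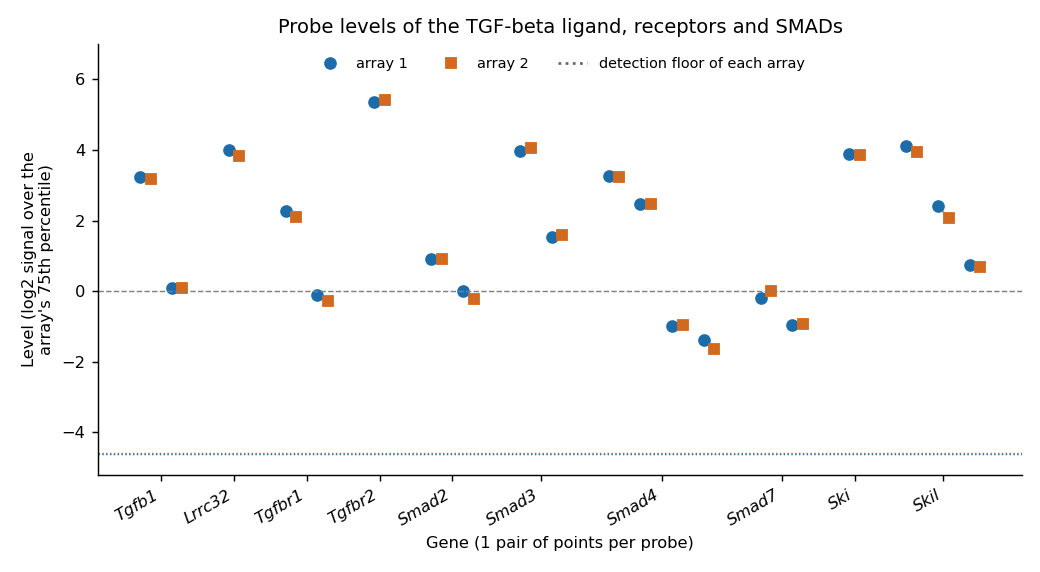
Level of each probe (log2 signal over the array's 75th percentile) for the 10 genes, with array 1 as circles, array 2 as squares and the detection floors as dotted lines near -4.6. All 20 pairs of points lie above the floors, and the widest pair, a Skil probe, differs by -0.32.

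The ligand and its anchor were present on both arrays. For Tgfb1, the more strongly bound of 2 probes had a signal of 2700.4 on array 1 and 2541 on array 2, and the other had 301.7 and 296.9. The gene's difference was -0.02 ± 0.14, and its probes differed in sign (-0.06 and 0.01). Array 2 was thus barely the lower one for the ligand, and the size is smaller than the spot error. Lrrc32, which holds the latent ligand on the Treg surface, had a single probe with signals of 4585 on array 1 and 4005 on array 2. Its difference of -0.16 ± 0.20 means a ratio of array 2 to array 1 of 0.893, also within the spot error.

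Of the receptors, Tgfbr1 was lower on array 2, and Tgfbr2 was nearly equal on both arrays. Tgfbr2, which binds the ligand first, had a signal of 11745 on array 1 and 11852 on array 2 from 1 probe. Its difference of 0.04 ± 0.20 is within the spot error. Tgfbr1, the signalling kinase, had signals of 1389 and 1201 with one probe and of 267.1 and 228.3 with the other on arrays 1 and 2. Both Tgfbr1 probes were lower on array 2, by nearly the same amount (-0.18 and -0.20), and the gene's difference was -0.19 ± 0.14, a ratio of 0.879. This was the lowest of the 10 differences. Whether Tgfbr1 and Tgfbr2 differ in their response was not tested, since each rests on 1 array per lot.

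The SMADs that carry the signal were at similar levels on both arrays. Smad3 was higher on array 2 with both of its probes, with signals of 4435 and 4678 for one and 831.1 and 846.9 for the other, and the difference was 0.08 ± 0.14. For Smad2 the 2 probes belong to different RefSeq transcripts and differed in sign. The probe for NM_010754 had signals of 532.7 and 530.5 on arrays 1 and 2 (0.03 ± 0.20), and the probe for NM_001252481 had 284.8 and 239.5 (-0.22 ± 0.21). The gene's mean of -0.10 ± 0.14 therefore joins 1 probe with nearly equal signals and 1 that was lower on array 2. Smad4, the partner shared by both, had 4 probes to one transcript. The brightest 2 had signals of 2714 and 2634 and of 1572 and 1541 on arrays 1 and 2, with differences of -0.01 and 0.0018. The third stood at 143.7 on both arrays, and only the dimmest, with 110.6 and 89.8, differed by more than its spot error (-0.27 ± 0.21). The mean of -0.06 ± 0.10 for Smad4 leans on that dimmest probe.

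The inhibitors of the pathway did not share a direction. Smad7, which a SMAD signal itself induces, had signals of 249.6 and 278.4 with one probe and of 148.0 and 147.1 with the other. Its difference of 0.10 ± 0.15 was the highest of the 10, and it was the only gene of the set with a mean level below 0 (-0.57 on array 1 and -0.47 on array 2). Ski had signals of 4202 and 4087, a difference of -0.01 ± 0.20. Skil, another gene that SMAD signals induce, was lower on array 2 with all 3 of its probes, which belong to 3 RefSeq transcripts. The probe for NM_011386 had signals of 4975 and 4322 (-0.17), that for NM_001271772 had 1508 and 1181 (-0.32 ± 0.20) and that for NM_001039090 had 476.6 and 451.8 (-0.05). Its mean was -0.18 ± 0.12, a ratio of 0.883. Smad7 and Skil, both known as feedback genes of the pathway, thus had opposite signs, at 0.72 and -1.53 times their spot errors. The difference of Smad7 lay within its spot error, so the contrast of signs is not resolved.

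**Figure D2:**
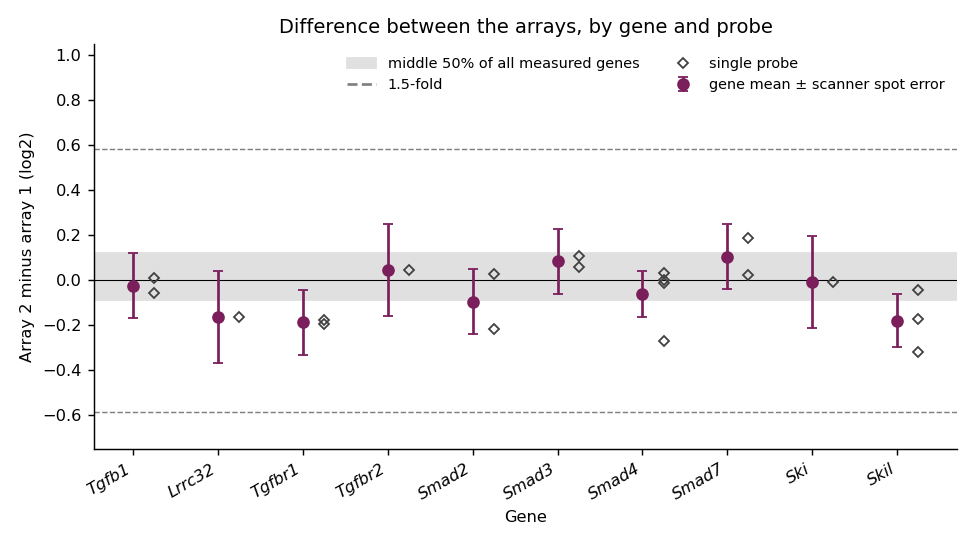
Difference between the arrays (array 2 minus array 1, log2) for each gene as a filled point with the scanner's spot error, and for each probe as an open diamond. The grey band holds the middle 50% of all measured genes (-0.09 to 0.12), and every gene and probe of the set lies within the dashed lines at 1.5-fold.

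As a group the 10 genes spanned -0.19 to 0.10. None reached 1.5-fold, where 5.97% of the 13743 genes measured on both arrays did (820 genes), and none reached 2-fold, which 1.43% did (196 genes; 1.34% higher and 0.0873% lower on array 2). With 10 genes a count of 0 is close to that background and says nothing particular about them. Among the 7793 genes with a mean level of 0 or more, where 9 of the 10 lie, 1.71% reached 1.5-fold. Of the 10, 7 were lower on array 2, where 46.2% of all measured genes were, and 3 were higher, where 53.8% were. Their median was -0.04 beside 0.01 over all measured genes. Tgfbr1 and Skil, 2 of the 10, lay further from 0 than their own spot error, which held for 28.6% of all measured genes. The error of a gene's mean treats the errors of its probes as independent. Among single probes, 3 of 20 lay further from 0 than their own error, and these belong to Smad2, Smad4 and Skil. Neither probe of Tgfbr1 did. A difference at least as far from 0 as that of Tgfbr1 was found in 29.0% of all measured genes and in 14.0% of those with a mean level of 0 or more. Among probes, 11 of 20 were lower on array 2, beside 47.4% of all named probes measured on both arrays. Of the 7 genes with several probes, Tgfb1, Smad2 and Smad4 had probes of both signs, as did 39.0% of the 5125 genes with several measured probes.

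The signs of some of these genes rest on the processing. Tgfb1 turned to 0.0025 with normexp, Tgfbr2 to -0.01 with scaling by spike-ins, and Smad2 to 0.01 with normexp and 0.03 with the brightest probe. The other 7 genes kept their sign under all 11 alternatives that use the scanner output. Not all of these could turn a sign. No filter, the stricter filter, the other detection flag and kept outlier spots left every gene of the set at its reported value. Taking the brightest probe also changed nothing for Lrrc32, Tgfbr2 and Ski, which have a single probe. The largest size of any gene's difference under the 11 was 0.24. The value table, read by its sample labels, turned every sign because its columns are assigned to the samples the other way round.

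**Figure D3:**
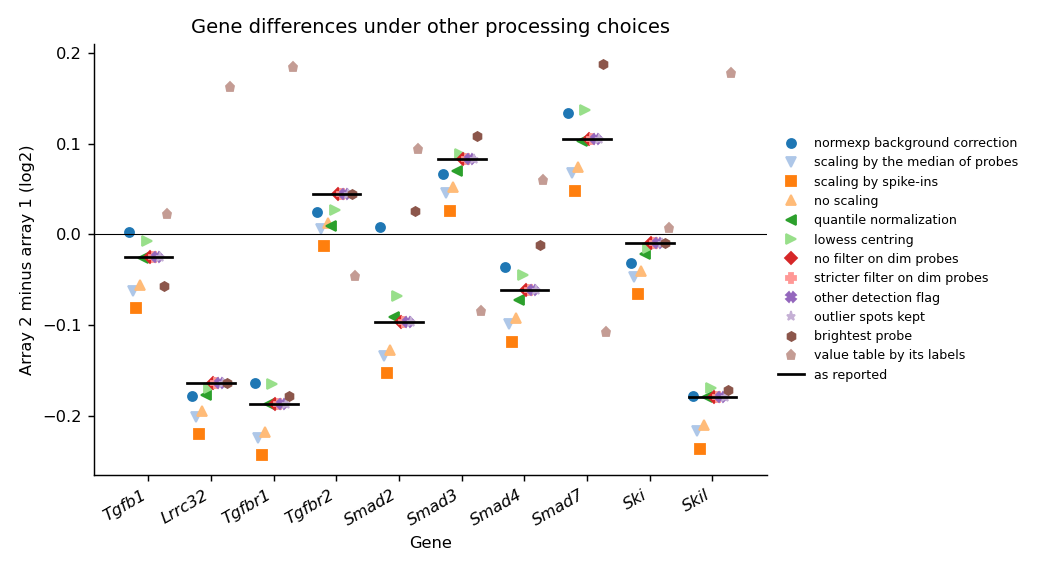
Difference of each gene (array 2 minus array 1, log2) as reported (black bars) and under 12 other processing choices (symbols). Among choices that use the scanner output, scaling by spike-ins gives the lowest value for each gene. The value table, whose columns are assigned to the samples the other way round, gives values of the other sign.

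Markers of Tregs and of other cells were set beside these values. All 6 Treg markers and all 7 T cell markers of the lists used were measured on both arrays, with differences between -0.17 and 0.12. Summed over the list, the T cell markers stood at 844 times the 75th percentile on array 1 and 843 times on array 2, and the Treg markers at 249 and 243 times. Markers of cells that the sort should remove were found too. All 10 macrophage markers were measured and all were higher on array 2, with a median of 0.30 and sums of 18.3 and 23.1. All 8 proximal tubule markers were higher on array 2, 7 of them by 2-fold or more beside 1.34% of all measured genes, with a median of 1.18 and sums of 78.7 and 163. Macrophages, platelets and endothelium are known to express Tgfb1, and platelets and endothelium also express Lrrc32. Of 6 platelet markers Pf4 (0.54 ± 0.21) was the only one measured on both arrays, Itga2b was measured on array 2 only, and Ppbp, Gp9, Gp1bb and Gp5 were measured on neither. Of 8 endothelial markers 7 were measured, with a median of 0.03 and sums of 5.90 on each array, and Tek was on neither. These sums rest mostly on Ehd3, with levels of 2.08 on array 1 and 2.07 on array 2. The other measured endothelial markers had levels below 0, with differences from -0.43 (Cdh5) to 0.34 (Plvap). Of 7 fibroblast and mesangial markers, Col1a1, Col1a2 and Dcn were measured on both arrays with sums of 0.448 and 0.519, Pdgfra on array 1 only, Col3a1 on array 2 only, and Pdgfrb and Lum on neither. The part of these cells in the values of the 10 genes was not tested. In RNA of a mixed sample, fewer cells of a type and less RNA per cell cannot be told apart.

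Genes around the core pathway were taken from 7 lists with 82 genes, of which 75 were measured on both arrays. Their median was -0.0021, with 37 higher and 38 lower on array 2. Of these, 9 were 1.5-fold or more higher on array 2, beside 5.15% of all measured genes, and none was 1.5-fold or more lower, beside 0.815%. All 9 had mean levels below 0, where 33 of the 75 genes lie and where 9.70% of all measured genes were that much higher. The 42 genes at or above 0 had a median of -0.06 and none reached 1.5-fold. The core set had 9 of its 10 genes at such levels.

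**Figure D4:**
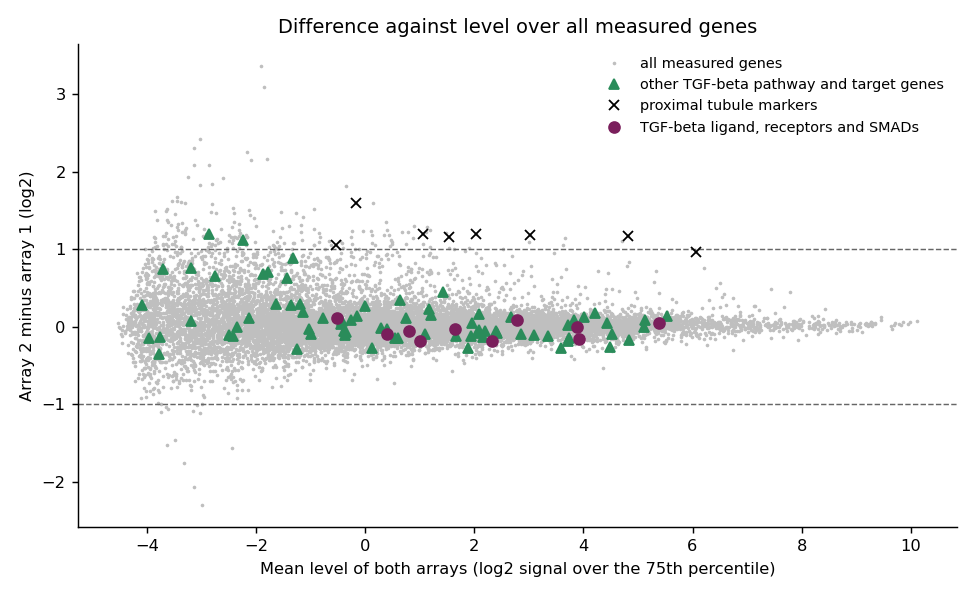
Difference between the arrays (log2) against the mean level of both (log2 signal over the 75th percentile) for all measured genes (grey), the 10 core genes (circles), other pathway and target genes (triangles) and proximal tubule markers (crosses). The core genes lie between -0.19 and 0.10, and the triangles past 1.5-fold lie at mean levels below 0. Dashed lines mark 2-fold.

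The list of other ligands and of genes for the latency and activation of TGF-beta was mixed. Tgfb3, another ligand, was dim at levels of -2.80 on array 1 and -1.68 on array 2, a difference of 1.12 ± 0.22 from 1 probe. Tgfb2 was well above background on array 1 only, where it was at least 1.53-fold higher. Nrros, which anchors latent TGF-beta on myeloid cells, had levels of 4.12 and 4.30 (0.18 ± 0.20), and Itgb8, whose product frees the ligand together with the alpha V integrin chain, had levels of -1.02 and -1.05 (-0.02 ± 0.21). Of 13 genes in this list 11 were measured, with a median of 0.18, 8 higher and 3 lower on array 2. Among the others, Thbs1 (0.76 ± 0.21), Mmp14 (0.74 ± 0.34) and the epithelial integrin chain Itgb6 (0.68 ± 0.22) were 1.5-fold or more higher, all at levels below -1.5 on both arrays. Ltbp2 (-0.13) and Ltbp3 (-0.10) had the lowest values, and Ltbp1 was not measured on either array.

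Other receptors and co-receptors of the superfamily were mostly dim. Of 12 receptors and co-receptors 10 were measured, with 5 higher and 5 lower on array 2 and a median of 0.10 that turned to -0.04 without the filter on dim probes and to -0.08 with another detection flag. Acvr2b, an activin receptor, had levels of -1.76 and -0.88 (0.88 ± 0.21), and Eng, the endothelial co-receptor endoglin, had -3.08 and -2.43 (0.65 ± 0.25). Bambi, a decoy receptor, had 0.26 and -0.01 (-0.27 ± 0.20), and Acvr1b differed by -0.14. Acvr1c and Bmpr1b were measured on neither array. Of the SMADs outside the core set, which serve bone morphogenetic protein signals, Smad1 (0.15 ± 0.20), Smad5 (-0.02 ± 0.15) and the inhibitory Smad6 (0.28 ± 0.36) were measured, and Smad9 was on neither array.

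Genes that tune SMAD signals had small differences, with a few exceptions. Of 20 modulators and co-factors 19 were measured, with a median of -0.05, 9 higher and 10 lower on array 2. This median was -0.09 with scaling by the median of probes, -0.11 with scaling by spike-ins and -0.02 with lowess centring. Dab2, an endocytic adaptor that proximal tubule cells also use, differed by 0.70 ± 0.17 at levels of -2.13 and -1.43, and the ubiquitin ligase gene Nedd4l, which renal epithelium also expresses, by 0.44 ± 0.20. The proximal tubule markers given above were higher on the same array, and their part in these values was not tested. The corepressor genes Tgif1 (-0.12 ± 0.15) and Ncor1 (-0.12 ± 0.09) had the lowest differences, and Zfyve9 was on neither array. In the branch that does not use SMADs, all 8 genes were measured, 6 of them lower on array 2, with a median of -0.10. The lowest were Mapk8, a JNK kinase gene (-0.29 ± 0.13), and Map3k7, the TAK1 kinase gene (-0.14 ± 0.12), and the highest were Mapk14 (0.22 ± 0.15) and Traf6 (0.07 ± 0.15). This median was -0.16 with scaling by spike-ins and -0.03 with the brightest probe.

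Target genes of the pathway had no shared direction. All 13 general targets were measured, 7 higher and 6 lower on array 2, with a median of 0.08. Pmepa1, a target that feeds back on the receptors, had levels of 3.40 and 3.28 (-0.12 ± 0.20). Bhlhe40, a transcription factor gene, differed by -0.18 ± 0.20. Ccn2, a matrix-associated target, was higher on array 2 (0.63 ± 0.21) at levels of -1.75 and -1.13. Id3, an inhibitor of DNA binding, was higher by 0.34 ± 0.20 at levels of 0.48 and 0.82.

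Among T cell genes known to respond to TGF-beta, whether induced or repressed, 11 of 12 were measured, 4 higher and 7 lower on array 2, with a median of -0.15. Itgae, the integrin chain CD103 that TGF-beta induces and that retains T cells in epithelium, had levels of 4.62 and 4.36 (-0.27 ± 0.20). Foxp3 had levels of 4.92 and 4.74 (-0.17 ± 0.20). Of genes that TGF-beta is known to repress, Gzmb, a cytotoxic protease gene, differed by -0.27 ± 0.20 and Tbx21, the type 1 helper regulator, by -0.28 ± 0.20. Ifng, also repressed, differed by -0.15 ± 0.20. Other genes that TGF-beta is known to repress had the opposite sign, namely Eomes (1.19 ± 0.26, at levels of -3.47 and -2.27) and Il2 (0.07 ± 0.26, at levels of -3.23 and -3.16), both dim. Genes known to be repressed thus lay on both sides. Eomes and Klf2 (0.12 ± 0.20) had the highest differences of the list, and Il9 was measured on neither array.

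**Figure D5:**
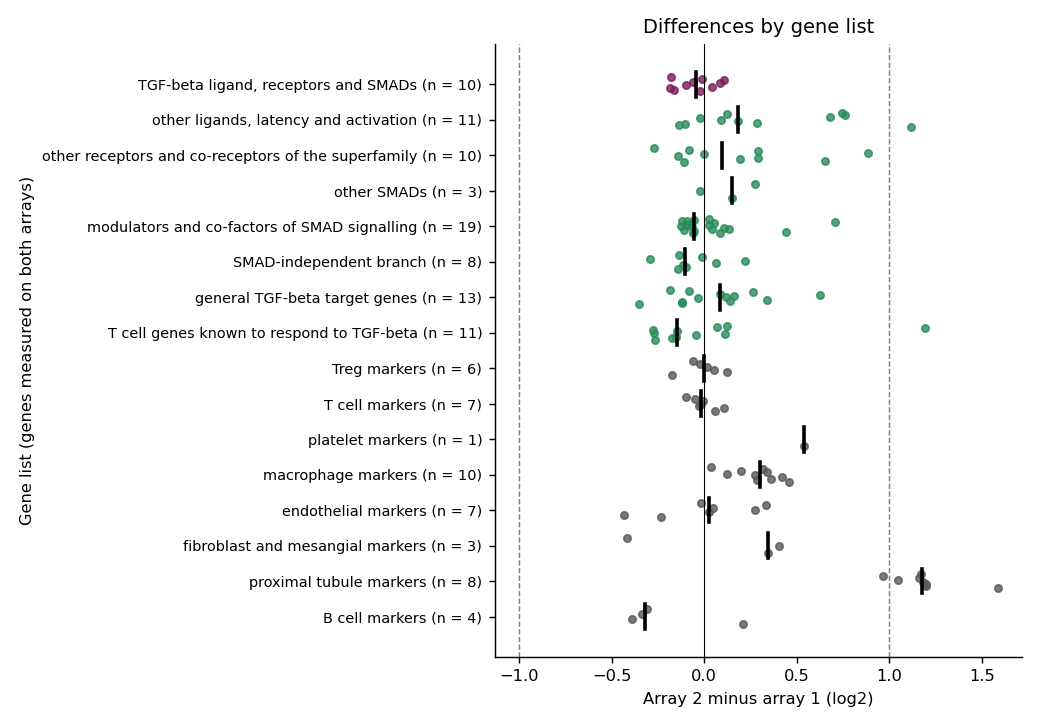
Difference of each gene measured on both arrays (array 2 minus array 1, log2) by list, with the list median as a black bar; core genes, pathway lists and cell type markers differ in colour. The core genes have a median of -0.04 and lie within 1.5-fold, and the proximal tubule markers have a median of 1.18; dashed lines mark 2-fold.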

How the data were processed

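RNA of kidney Tregs was hybridised to 2 single-colour (Cy3) Agilent mouse arrays. The authors quantified spots with Agilent Feature Extraction 10.7.1.1, per the submitters' processing notes. Per the file headers, the processed signal intensity is background-corrected and detrended within each array, with no scaling between arrays. The value table deposited by the authors gave a linear ratio per probe. It equalled the processed signal over 1 constant per array, and no source used here describes its making.

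Control and outlier spots were left out (75 outliers on array 1, 56 on array 2) and none was saturated. The log2 signal minus that array's 75th percentile gave a probe's level. Of 56605 probes, 32994 received 1 symbol through RefSeq accessions (GRCm38.p6 names; the array files name build mm9). Probes flagged as well above background on both arrays were averaged per gene, and the scanner's error was propagated. Normexp used limma 3.58.1 (offset 50) on the median signal. The number of arrays limits the precision, and genes were counted by size. Lower bounds were set against the higher of the dim array's floor and the probe's own signal there. The calculation was tested on simulated data with added differences far larger than those of the core genes. It did not test the recovery of differences as small as theirs. Members and lists were chosen with earlier results of these data known. Named genes were every core gene, the 2 highest and 2 lowest of each pathway list, its unmeasured genes and 7 fixed genes. Mmp14, Itgb6 and single promoter matches were picked after their values were seen, and marker lists are given mostly as ranges. Alternatives were other background correction, scaling, filters, probe choice, fold limit and source. Protein sequences, planned in the design, were not used here, and some genes of the lists are not reported here.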

Additional observations from a re-analysis of the deposited data

How the results depend on the processing

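All 10 genes were measured on both arrays and 0 passed 2-fold under all 12 alternatives, and 0 passed 1.5-fold. Apart from the stricter filter, the alternatives kept or loosened the filter on dim probes. They could therefore not lower the count of measured genes. Their median of -0.04 ranged from -0.10 (scaling by spike-ins) to -0.01 over the 11 alternatives on scanner output and was 0.042 with the value table, where 3 in place of 7 genes were lower under the label of array 2. Counts over all genes moved more. Genes 2-fold higher on array 2 (184) became 28 with normexp, 648 with no filter, 84 with the stricter filter (4 times the floor), 440 with the other detection flag, 13 with the value table and 708 at a 1.5-fold limit. Genes 2-fold lower (12) became 0, 399, 1, 229, 186 and 112 in the same order. The value table's counts are nearly the main ones with the sides exchanged. Its constants (285.0 for array 1 and 278.6 for array 2) differ slightly from the 75th percentiles used here (285.6 and 279.5). Of the differences of single genes and the list medians, 184 of 204 values moved by less than the spot error. Of the other 20, 14 came from the value table. The filter, detection flag and outlier choices left the differences of the 10 genes unchanged, so for them these were no check. Signal over background limits Smad6 and the other genes near the floor. Leaving out an array was not possible with 1 per lot.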

Other observations

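Some pathway genes had probes that disagreed, and they were named after their values were seen. The 3 measured probes of Mapk8 ranged from -0.78 to 0.04, the 3 of Tsc22d1, a target gene, from -0.31 to 0.56, the 2 of Cdkn2b, a cell cycle inhibitor, from -0.16 to 0.40, and the 2 of Thbs1 from 0.39 to 1.13. Which transcripts these probes bind was not tested. Among B cell markers, Ms4a1 (-0.39), Cd79a (-0.33) and Cd79b (-0.31) were lower on array 2.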
